A study of Mus musculus with 22 samples.

Results

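The 10 genes described here are the hormone and receptor genes of the anterior pituitary and the gene of the melanocortin precursor: Gh, Prl, Pomc, Cga, Lhb, Fshb, Tshb, Pou1f1, Gnrhr and Ghrhr. They were taken by gene symbol from 41456 gene IDs quantified in 22 hypothalamus libraries. They were chosen by their levels: earlier results of the same data showed the hormone genes high in some of these libraries, so the levels are a description and support nothing. RNA came from the hypothalamus of C57BL/6J mice, a background that both genotypes share; the labels state neither age nor sex. PWScrm+/p− mice, called mutant, lack the paternally inherited copy of the Snord116 small nucleolar RNA genes, and PWScrm+/p+ mice, called control, carry it. Tissue was taken from 3 mutant and 3 control mice at ZT0, when the light period begins, from 4 mutant and 4 control mice at ZT6, 6 h later, and from 4 mutant and 4 control mice kept awake for those 6 h (sleep deprivation, SD). Mice are numbered here within each of these 6 groups in order of deposit, and the number pairs nothing across groups.

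The pituitary gland hangs from the base of the hypothalamus and holds several endocrine cell lineages. Somatotrophs make growth hormone, lactotrophs prolactin, thyrotrophs thyrotropin and gonadotrophs luteinizing and follicle-stimulating hormone. Pomc, the precursor of ACTH, α-MSH and β-endorphin, has more than 1 home: corticotrophs of the anterior lobe, melanotrophs of the intermediate lobe and a population of neurons in the arcuate nucleus of the hypothalamus, where its products restrain feeding. A Pomc level in a hypothalamus sample can therefore be set against both pituitary and arcuate genes, as is done below.

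Depth and tissue content differed between libraries. The 17 rows named Snord116 together had 0 counts in all 11 mutant libraries, and 0 to 1561 counts in the 11 control libraries, of which 3 were also at 0. In 17 libraries, called the neural libraries here, totals were 14609454 to 46965594 counts, and neuron markers (Snap25, Syt1, Gad1, Slc17a6, Slc32a1) summed to 1713 to 2916 CPM (counts per 1000000 counts of the library). Mutant ZT0 mice 1, 2 and 3 and mutant ZT6 mouse 3 stood apart: neuron markers summed to 0.964 to 4.26 CPM, markers of the hypothalamus to 0.435 to 2.78 CPM against 820 to 1863 CPM in the neural libraries, and fibroblast markers to 7689 to 22190 CPM against 25.9 to 291 CPM. Those 4 libraries are labelled hypothalamus, but its markers were close to absent from them. Mutant ZT6 mouse 2 had only 7348 counts, so 3 counts there already equal 408 CPM. No mutant library at ZT0 was neural, and no member can be compared between genotypes at ZT0 apart from that difference in content.

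Growth hormone and prolactin marked 3 libraries. Gh, which encodes growth hormone (chr11:106300271-106301865, minus strand, GRCm38), stood at 0, 0 and 0 CPM in mutant ZT0 mice 1 to 3, against 0, 0.843 and 0.0587 CPM in control ZT0 mice 1 to 3. At ZT6 it was 0.468, 0, 0 and 14.02 CPM in mutant mice 1 to 4, against 569, 0.1799, 0.124 and 3.83 CPM in control mice 1 to 4. After SD it reached 19556, 0, 0 and 938 CPM in mutant mice 1 to 4, against 0.384, 6.31, 0.0809 and 1.79 CPM in control mice 1 to 4. Gh was thus high in mutant SD mice 1 and 4 and control ZT6 mouse 1 and low or absent in every other library, with groups of both genotypes overlapping at each state. In mutant SD mouse 1, Gh alone took 1.96% of all counts.

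The 6 hormone genes other than Pomc (Gh, Prl, Cga, Lhb, Fshb, Tshb) summed to 23253 CPM in mutant SD mouse 1, 1097 CPM in mutant SD mouse 4 and 692 CPM in control ZT6 mouse 1. These 3 neural libraries, at or above a limit of 100 CPM, are called hormone-rich. The other 14 neural libraries lay between 0.126 and 20.1 CPM, the highest being control SD mouse 2. Since the limit uses the hormone genes themselves, no test between the 3 libraries and the 14 is given. Fewer cells of a type and less RNA per cell cannot be told apart in such bulk samples.

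**Figure D1:**
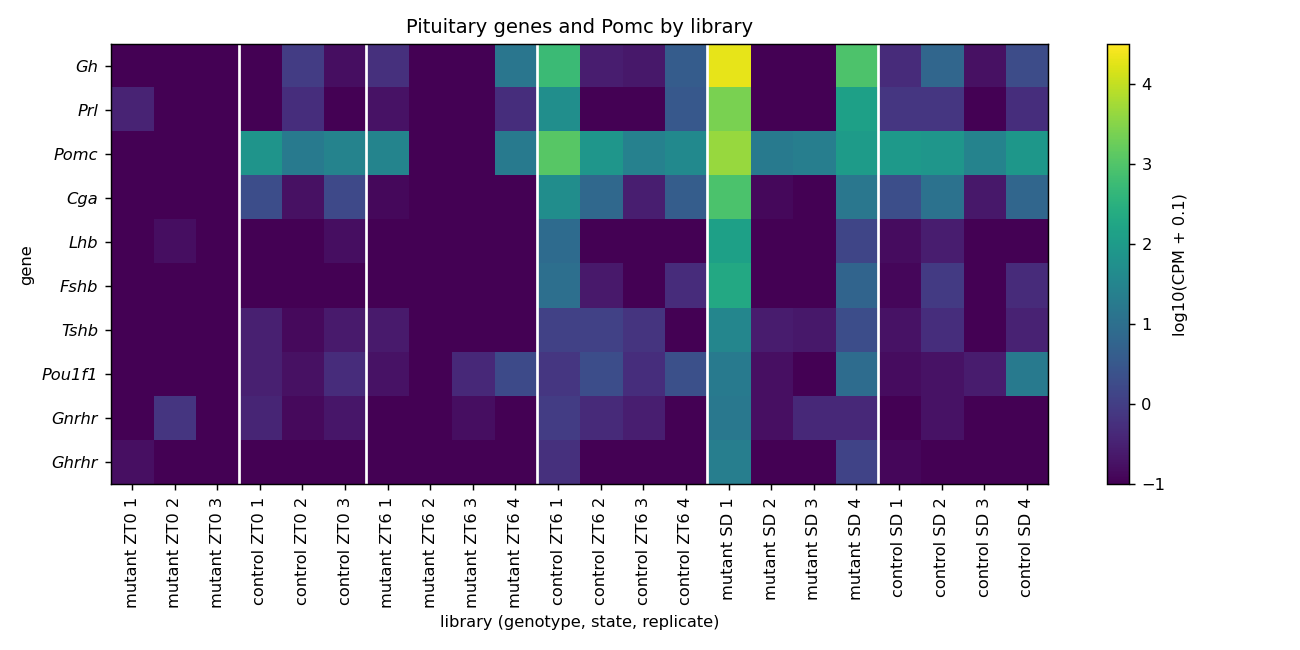
Level of each of the 10 genes (rows) in each of the 22 libraries (columns), as log10(CPM + 0.1) by colour, with white lines between groups. Gh, Prl, Lhb, Fshb and Ghrhr are brightest in control ZT6 mouse 1, mutant SD mouse 1 and mutant SD mouse 4, Pou1f1 is brightest in control SD mouse 4, and Pomc is present in all 17 neural libraries.

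Prl, the prolactin gene (chr13:27057570-27065205, plus strand), was highest in the same 3 libraries as Gh. It reached 2433 CPM in mutant SD mouse 1, 135 CPM in mutant SD mouse 4 and 53.1 CPM in control ZT6 mouse 1. The next library was control ZT6 mouse 4 at 3.15 CPM, and 7 of the 14 low libraries had no count. The pituitary transcription factor Pou1f1 (chr16:65520511-65535005, plus strand) is required for somatotrophs, lactotrophs and thyrotrophs and binds AT-rich sites at Gh, Prl and its own gene. The start regions of Prl and Pou1f1 are shown because both hold its core letters, TATNCAT, which were searched on both strands from 250 bases before to 50 bases after each RefSeq start (GRCm38.p6). Capitals mark the matches, each written as read on the gene's strand.
Prl, chr13:27057320-27057619, plus strand: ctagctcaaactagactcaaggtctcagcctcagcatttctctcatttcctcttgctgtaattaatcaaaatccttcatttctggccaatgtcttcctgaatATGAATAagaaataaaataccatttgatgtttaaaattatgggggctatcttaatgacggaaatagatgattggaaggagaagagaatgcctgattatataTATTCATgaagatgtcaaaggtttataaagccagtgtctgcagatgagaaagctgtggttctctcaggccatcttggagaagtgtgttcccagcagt
Pou1f1, chr16:65520262-65520561, plus strand: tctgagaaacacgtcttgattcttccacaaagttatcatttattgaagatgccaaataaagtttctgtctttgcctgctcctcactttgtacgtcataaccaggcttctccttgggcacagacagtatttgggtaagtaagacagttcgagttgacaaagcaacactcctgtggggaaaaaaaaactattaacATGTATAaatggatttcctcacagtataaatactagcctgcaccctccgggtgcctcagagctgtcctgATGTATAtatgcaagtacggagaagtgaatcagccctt
The matches begin at -148 and -47 from the start of Prl and at -57 and 13 from that of Pou1f1, and none overlaps another. The same letters occur in 8.84% of 32851 mouse promoter windows. Of the 10 genes, 8 had 9 windows in all (Gh and Ghrhr had none), since Pou1f1 has another start, at chr16:65523059-65523358, with no match. Neither TCACACC (Tbx19; 3.98% of windows) nor TAATCC (Pitx1; 7.06%) occurred in any of the 9.

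Pou1f1 itself did not follow the order of Gh and Prl across libraries. In the hormone-rich libraries it was 18.1 CPM in mutant SD mouse 1, 8.50 CPM in mutant SD mouse 4 and only 0.660 CPM in control ZT6 mouse 1. The highest value of all, 18.7 CPM, came from control SD mouse 4, where Gh was 1.79 CPM. Among the other low libraries, Pou1f1 was 2.05 CPM in control ZT6 mouse 4, 1.89 CPM in control ZT6 mouse 2 and 1.66 CPM in mutant ZT6 mouse 4, and 0 to 0.435 CPM elsewhere. Control ZT6 mouse 4, mutant ZT6 mouse 4 and control SD mouse 4 are 3 of the 4 libraries whose titles end in numbers 43 to 46. These end numbers are called index numbers here, and the titles do not say what they stand for. Within the 14 low libraries, Pou1f1 was 1.66 to 18.7 CPM in those 3 and 0 to 1.89 CPM in the 11 with index numbers 1 to 18. The part of whatever these numbers stand for in the Pou1f1 values was not tested. An exon stretch of 136 bases of Pou1f1 overlaps Gm49631 on the opposite strand, and whether counting used strand is not given in the sources used here, so its level is uncertain.

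Ghrhr, the somatotroph receptor for growth hormone-releasing hormone (chr6:55376295-55388530, plus strand), was the most restricted member. It had 773 counts (22.9 CPM) in mutant SD mouse 1, 21 counts (1.15 CPM) in mutant SD mouse 4 and 22 counts (0.468 CPM) in control ZT6 mouse 1. Mutant ZT0 mouse 1 and control SD mouse 1 had 1 count each, and the remaining 17 libraries had 0.

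Tshb encodes the β chain of thyrotropin (chr3:102775465-102782718, minus strand, inside Tspan2 with 0 shared exon bases). It stood at 32.8 CPM in mutant SD mouse 1, 1.92 CPM in mutant SD mouse 4 and 1.09 CPM in control ZT6 mouse 1. Control ZT6 mouse 2, a library low in Gh, had 23 counts (1.03 CPM), close to the last of these. The rest of the 14 had 0 to 0.560 CPM.

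The glycoprotein hormone genes were highest in the same libraries. Cga, the α chain shared by thyrotropin and the gonadotropins (chr4:34893779-34907370, plus strand), was 0, 0 and 0 CPM in mutant ZT0 mice 1 to 3, against 1.85, 0.0766 and 1.497 CPM in control ZT0 mice 1 to 3. At ZT6 it was 0.0293, 0, 0 and 0 CPM in mutant mice 1 to 4, against 49.9, 7.01, 0.187 and 4.18 CPM in control mice 1 to 4. After SD it was 889, 0.0335, 0 and 15.3 CPM in mutant mice 1 to 4, against 1.95, 11.8, 0.121 and 6.44 CPM in control mice 1 to 4. Cga reached 1 CPM in 7 of the 14 low libraries, all 7 of them controls, and Gh in 4 of the 14, of which 1 was mutant. The mutant values of 0 at ZT0 and 2 of those at ZT6 come from libraries with few neural transcripts or few counts.

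Lhb, the β chain of luteinizing hormone (chr7:45420820-45421897, plus strand), was 135 CPM in mutant SD mouse 1, 1.32 CPM in mutant SD mouse 4 and 8.37 CPM in control ZT6 mouse 1. Fshb, the β chain of follicle-stimulating hormone (chr2:107056140-107059656, minus strand), was 207, 5.76 and 10.2 CPM in the same 3 libraries. Gnrhr, the receptor through which gonadotropin-releasing hormone reaches gonadotrophs (chr5:86180754-86197901, minus strand), was 15.6, 0.329 and 0.852 CPM. In the 14 low libraries the highest values were 0.179 CPM for Lhb and 0.778 CPM for Fshb, both in control SD mouse 2, and 0.360 CPM for Gnrhr in control ZT6 mouse 2. Gonadotroph genes were therefore lower in mutant SD mouse 4 than in control ZT6 mouse 1, although Gh and Prl were higher there. Cga shares 305 exon bases with Platr9 and Lhb 138 with Ruvbl2, both on the opposite strand, which leaves their low values uncertain.

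The ratio to Gh shows this difference between lineages. Per 1000 Gh counts, Prl had 124 in mutant SD mouse 1, 144 in mutant SD mouse 4 and 93.4 in control ZT6 mouse 1, a spread of 1.54-fold. In the 7 low libraries with counts of both genes, it ran from 30.2 in mutant ZT6 mouse 4 to 1714 in control SD mouse 1, the last on only 14 Gh counts. Tshb had 1.68, 2.05 and 1.91, a spread of 1.22-fold, and Ghrhr 1.17, 1.23 and 0.823, a spread of 1.49-fold. For Tshb and Ghrhr the exact 95% counting intervals of the 3 libraries overlapped (Tshb 1.58 to 1.78, 1.43 to 2.85 and 1.42 to 2.51; Ghrhr 1.09 to 1.25, 0.760 to 1.88 and 0.516 to 1.25), while for Prl they did not. These intervals cover counting error only.

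The gonadotroph genes all took the same order, control ZT6 mouse 1 over mutant SD mouse 1 over mutant SD mouse 4. Per 1000 Gh counts, Cga had 45.4 in mutant SD mouse 1, 16.3 in mutant SD mouse 4 and 87.6 in control ZT6 mouse 1, a spread of 5.37-fold. Lhb had 6.91, 1.40 and 14.7 (10.5-fold), Fshb 10.6, 6.14 and 17.8 (2.90-fold) and Gnrhr 0.800, 0.351 and 1.496 (4.26-fold). Pou1f1 had 0.924, 9.07 and 1.16 (9.82-fold). Pomc spread most, with 235, 109 and 2107 counts per 1000 Gh counts, 19.4-fold between libraries.

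**Figure D2:**
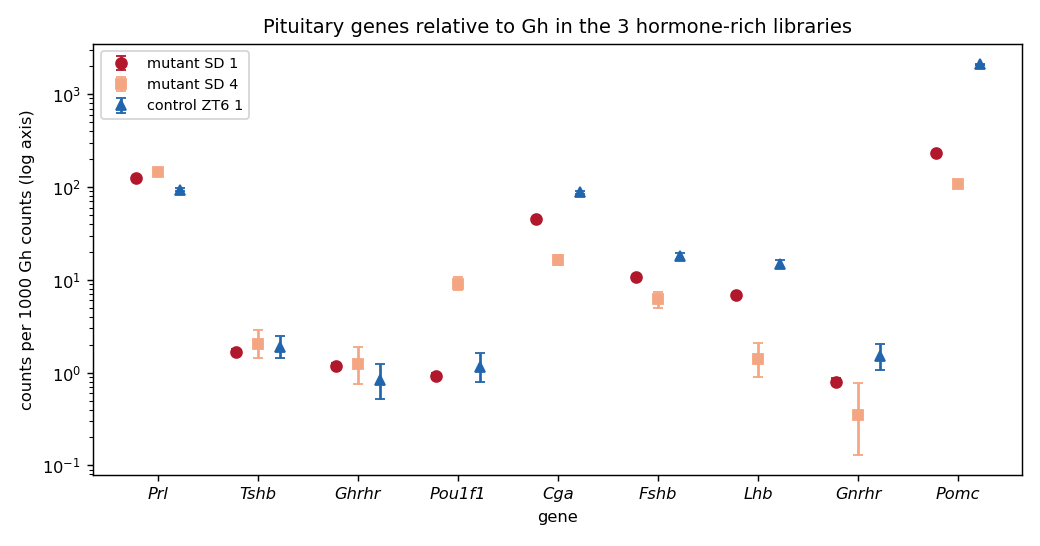
Counts per 1000 Gh counts (log axis) of 9 genes in the 3 hormone-rich libraries, with exact 95% counting intervals as bars. Prl, Tshb and Ghrhr lie within 1.54-fold between libraries, whereas Pomc runs from 109 in mutant SD mouse 4 to 2107 in control ZT6 mouse 1.

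Pomc (chr12:3954951-3960642, plus strand) was present in every neural library. It stood at 0, 0 and 0 CPM in mutant ZT0 mice 1 to 3, against 69.5, 17.6 and 28.6 CPM in control ZT0 mice 1 to 3. At ZT6 it was 30.9, 0, 0 and 18.6 CPM in mutant mice 1 to 4, against 1199.7, 78.2, 25.6 and 41.3 CPM in control mice 1 to 4. After SD it was 4589.9, 18.5, 22.3 and 102 CPM in mutant mice 1 to 4, against 94.2, 78.99, 28.6 and 82.5 CPM in control mice 1 to 4. The 5 zeros belong to the libraries with few neural transcripts and to the shallow one. Mutant SD mouse 1 and control ZT6 mouse 1 stood far above the rest, and mutant SD mouse 4 lay just above the highest of the 14 low libraries, which had a median of 29.8 CPM and a range of 17.6 to 94.2 CPM.

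Per kilobase of transcript, Pomc was below Gh in mutant SD mouse 1 (4401 against 22686 CPM per kb) and in mutant SD mouse 4 (97.6 against 1088 CPM per kb). In control ZT6 mouse 1 the order was the other way, with Pomc at 1150.2 and Gh at 660.4 CPM per kb. Above the median of the 14 low libraries, Pomc amounted to 4560.1 CPM in mutant SD mouse 1, 72.0 CPM in mutant SD mouse 4 and 1169.9 CPM in control ZT6 mouse 1. That is 0.233, 0.0768 and 2.06 CPM of Pomc for each CPM of Gh.

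**Figure D3:**
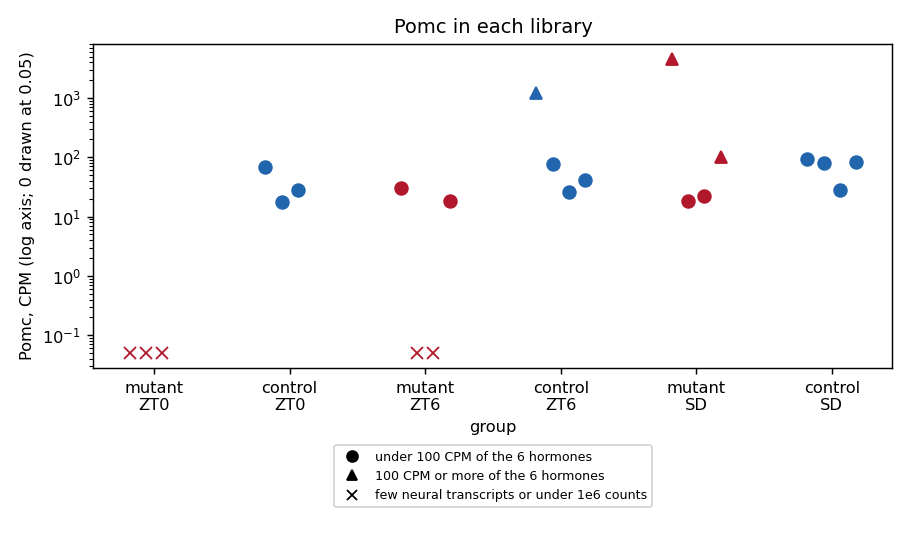
Pomc level (CPM, log axis, with 0 drawn at 0.05) in each library by group, mutant in red and control in blue. Circles are the 14 low libraries, between 17.6 and 94.2 CPM, triangles the 3 hormone-rich ones, and crosses the 5 libraries that were not neural or not deep, all at 0.

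Several genes of the melanotroph and corticotroph lineages were also far above the low libraries where Pomc was highest, a description with no test. Oacyl, a gene known for high expression in intermediate-lobe melanotrophs, was 174 CPM in mutant SD mouse 1 and 36.5 CPM in control ZT6 mouse 1, against 0.644 to 3.17 CPM in the 14 low libraries. Pax7, the selector factor of melanotrophs, was 20.4 and 5.94 CPM, against 0.0809 to 1.34 CPM. Tbx19, the factor that switches on Pomc in both lineages, was 36.8 and 10.05 CPM, against 1.41 to 3.59 CPM. For each 1000 CPM of Pomc above the median, mutant SD mouse 1 and control ZT6 mouse 1 had 7.67 and 7.02 CPM of Tbx19, 4.36 and 4.61 CPM of Pax7, and 37.8 and 30.2 CPM of Oacyl, all above their own medians. Pcsk2, another listed gene, had 54.4 and 63.7 CPM. The proportions were less alike for Crhr1, at 2.03 and 3.65 CPM, and for Pcsk1, at 9.20 and -18.2 CPM. Pcsk1 lay under its median in control ZT6 mouse 1. In mutant SD mouse 4, where Pomc was only 72.0 CPM above its median, Tbx19 came to 24.8 CPM on the same scale.

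Of the 7 listed corticotroph and melanotroph genes, 6 exceeded all 14 low libraries in mutant SD mouse 1, 1 in mutant SD mouse 4 (Tbx19, 3.62 CPM) and 4 in control ZT6 mouse 1. The same held for 17.96%, 7.46% and 11.03% of all 16744 genes with at least 1 CPM on average. Pcsk2, the convertase that cuts the precursor down to α-MSH, was 465 CPM in mutant SD mouse 1 and 291 CPM in control ZT6 mouse 1, against 140 to 274 CPM in the low libraries. The convertase Pcsk1 exceeded them only in mutant SD mouse 1, at 134 CPM against 45.9 to 119.6 CPM, and the corticotropin-releasing hormone receptor Crhr1 stayed within their range in all 3.

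Early pituitary factors were also high. Of 11 listed, 8 exceeded all low libraries in mutant SD mouse 1, 3 in mutant SD mouse 4 and 4 in control ZT6 mouse 1, the same background shares applying. Pitx1, a partner of Tbx19 at Pomc, was 27.5, 0.603 and 3.28 CPM, against 0 to 2.33 CPM in the low libraries. Lhx3, needed for the growth of the gland, was 33.1, 1.32 and 5.13 CPM, against 0.187 to 0.944 CPM. Of 7 receptors for releasing and inhibiting factors, 3, 0 and 2 exceeded the low libraries; Drd2, the dopamine receptor that restrains lactotrophs and melanotrophs, was 56.8, 16.7 and 26.3 CPM, against 11.1 to 21.5 CPM. Of 11 arcuate nucleus genes in the table, 1 (Glp1r), 0 and 0 exceeded them. Ghrh, Npy, Agrp and Cartpt stayed within the range of the 14 in all 3 hormone-rich libraries, and Tac2 was below it in mutant SD mouse 1. Of all 16744 genes, 3.13% were below the 14 in mutant SD mouse 1, 8.15% in mutant SD mouse 4 and 1.97% in control ZT6 mouse 1. In mutant SD mouse 1 all 5 myelin markers and the neuron genes Snap25 and Slc17a6 were below the 14, while the neuron gene Slc32a1 was above the 14. Hcrt and Pmch, peptide genes of the lateral hypothalamus, were below them and the fibroblast marker Dcn was above them in mutant SD mouse 1 and in control ZT6 mouse 1. In mutant SD mouse 4 the myelin genes Mag and Mobp were above the 14, and Mog and Glp1r below. The part of these markers in the hormone values was not tested.

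**Figure D4:**
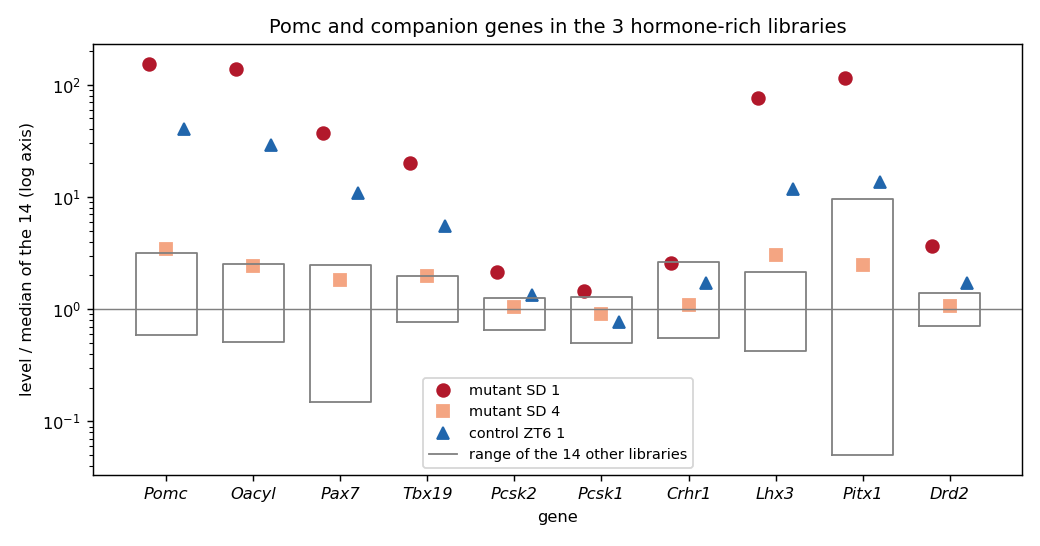
Level of Pomc and 9 companion genes in the 3 hormone-rich libraries as a multiple of the median of the 14 low libraries (log axis), with boxes for the range of those 14. Pomc, Oacyl, Pax7 and Tbx19 lie above the boxes in mutant SD mouse 1 and control ZT6 mouse 1, and Crhr1 lies inside its box in all 3 libraries.

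The start regions of Pomc and Lhb are shown because they alone among the 9 windows hold AAGGTCA, the letters bound by Nr5a1, a factor of gonadotrophs and of the ventromedial hypothalamus. Capitals mark the match.
Pomc, chr12:3954695-3954994, plus strand: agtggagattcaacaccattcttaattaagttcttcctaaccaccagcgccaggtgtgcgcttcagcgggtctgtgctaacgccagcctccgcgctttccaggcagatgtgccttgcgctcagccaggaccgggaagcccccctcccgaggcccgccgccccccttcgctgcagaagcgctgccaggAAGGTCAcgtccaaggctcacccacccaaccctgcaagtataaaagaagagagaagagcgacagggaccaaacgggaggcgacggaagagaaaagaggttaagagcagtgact
Lhb, chr7:45420696-45420995, plus strand: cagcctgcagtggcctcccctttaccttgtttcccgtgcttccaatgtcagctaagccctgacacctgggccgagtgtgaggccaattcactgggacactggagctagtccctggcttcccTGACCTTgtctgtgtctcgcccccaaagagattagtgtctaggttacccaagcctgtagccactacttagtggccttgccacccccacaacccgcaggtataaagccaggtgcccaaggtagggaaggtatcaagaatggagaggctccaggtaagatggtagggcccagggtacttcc
The match begins at -63 on the plus strand for Pomc and at -129 on the minus strand for Lhb, and 4.72% of 32851 windows hold one on either strand. Nr5a1 was 26.2 CPM in mutant SD mouse 1, 15.2 CPM in mutant SD mouse 4 and 30.4 CPM in control ZT6 mouse 1, against 9.51 to 29.1 CPM in the low libraries.

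Within the 14 low libraries, Pomc was higher where 5 genes of the arcuate nucleus were higher. Relations were computed on log2(CPM + 1), with 2-sided permutation tests (100000 resamples) and Benjamini-Hochberg adjustment over 6 partners. Ghrh, the releasing hormone for growth hormone, gave r = 0.85 (adjusted permutation p = 0.00042) and rho = 0.78 (adjusted p = 0.00258). Npy and Agrp, peptides of the arcuate neurons that promote feeding, gave r = 0.77 (adjusted permutation p = 0.00219) and rho = 0.86 (0.00168), and r = 0.74 (0.00386) and rho = 0.82 (0.00225). Cartpt, a peptide made by many arcuate Pomc neurons, gave r = 0.67 (adjusted permutation p = 0.00769) and rho = 0.69 (0.0116). Tac2, the neurokinin B gene, gave r = 0.60 (adjusted permutation p = 0.0288) and rho = 0.60 (0.0317); its call was lost without control SD mouse 1 (r = 0.48, adjusted permutation p = 0.0936) or control SD mouse 4 (r = 0.57, adjusted p = 0.0513). Of the other listed arcuate genes with at least 5 CPM, Tbx3 had rho = 0.73 and Mc3r rho = 0.53 with Pomc, whereas Lepr and Glp1r both had rho = -0.08, given with no test. Nhlh2 and Prdm12, also listed, averaged less and were not ranked. In control SD mice 1, 4 and 2, highest in Pomc, Nhlh2 was 0.467, 0.138 and 1.08 CPM. In control ZT0 mouse 2, mutant SD mouse 2 and mutant ZT6 mouse 4, lowest in Pomc, Nhlh2 was 1.53, 1.07 and 2.25 CPM. Prdm12 was 2.36, 3.22 and 3.65 CPM in the former and 2.18, 3.32 and 5.74 CPM in the latter.

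Without the 2 libraries farthest from the median of the partner, r was 0.86 for Ghrh, 0.73 for Npy, 0.64 for Agrp, 0.60 for Cartpt and 0.53 for Tac2. Among the 11 libraries with index numbers 1 to 18, r was 0.87, 0.75, 0.73, 0.72 and 0.69 for the same partners; only 3 of the 14 have index numbers 43 to 46, too few for a value. All 4 mutant libraries of the 14 had Pomc at or under 30.9 CPM, whereas the 10 controls ran from 17.6 to 94.2 CPM. In those 10 controls r was 0.87 for Ghrh, 0.80 for Npy, 0.76 for Agrp, 0.58 for Cartpt (adjusted permutation p = 0.0653) and 0.69 for Tac2, so that the relation with Cartpt missed the threshold there.

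The sum of the 6 hormones, whose range in these 14 is capped by the limit that chose them, gave r = 0.53 (adjusted permutation p = 0.0554) and rho = 0.55 (adjusted p = 0.0456). Its genes are members chosen for their levels, so these p-values are a description and support nothing. The r with this sum was 0.78 among index numbers 1 to 18, and 0.72 without control SD mouse 2 and mutant ZT6 mouse 4. Among partners added after the values were seen, Cga gave r = 0.85 and rho = 0.81, Tbx19 r = 0.77 and rho = 0.76, Gh r = 0.04 and rho = 0.23, and Oacyl r = -0.38 and rho = -0.25. Among index numbers 1 to 18 their r was 0.83, 0.76, 0.36 and -0.27. Since these 4 were picked with their values known, and Cga and Gh are themselves members, they are a description with no test.

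**Figure D5:**
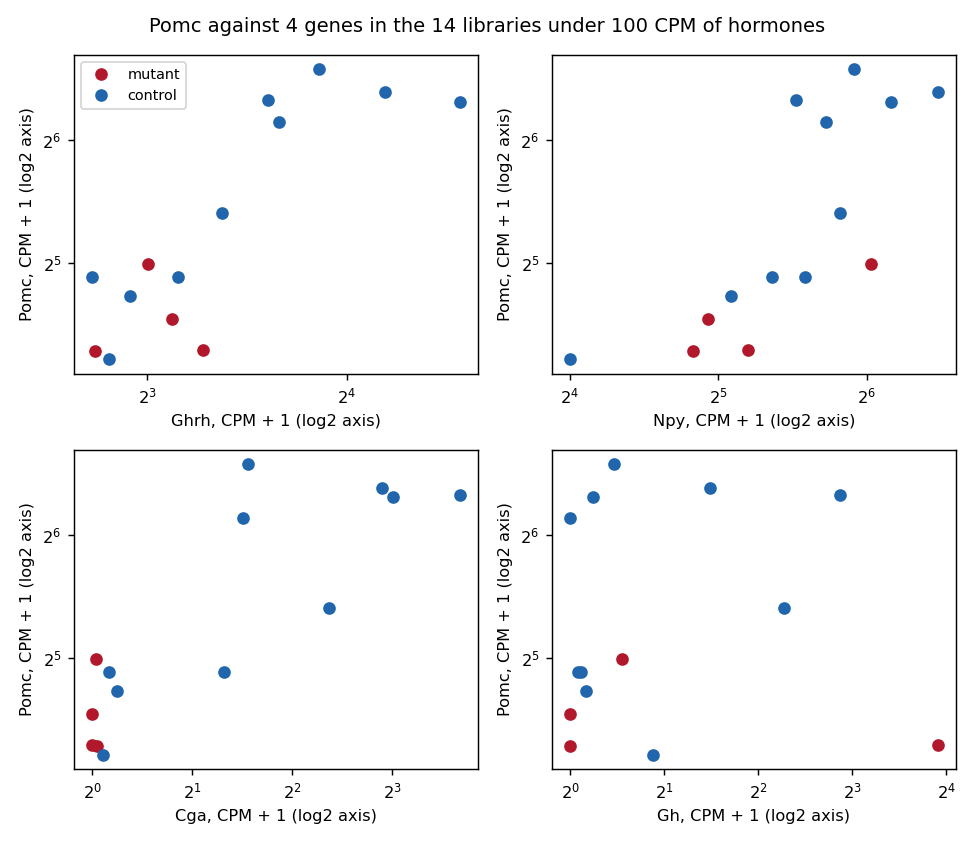
Pomc (CPM + 1, log2 axis) against Ghrh, Npy, Cga and Gh (CPM + 1, log2 axes) in the 14 low libraries, mutant in red and control in blue, 1 point per library. Pomc is higher where Ghrh (r = 0.85), Npy (r = 0.77) and Cga (r = 0.85) are higher, and r with Gh is 0.04.

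Across 12786 genes with at least 5 CPM on average, those whose levels ranked most like Pomc over the 14 libraries were Cited1 (rho = 0.93), Emc9 (0.91), Rasd1 (0.91), Hdc (0.89) and Rilpl2 (0.89). Npy stood at rank 24, Agrp at rank 64, Ghrh at rank 114, Cartpt at rank 434 and Tac2 at rank 1021 of that order. Over all 17 neural libraries and 12862 genes, the sum of the 6 hormones ranked most like Lamb2 (rho = 0.93), Ephb4 (0.91), Hspg2 (0.91), Zfp747 (0.91) and Fkbp10 (0.91). The same libraries and their depths enter every pair, and these orders are descriptions with no p-value.

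The effects of genotype, sleep deprivation and time on the 10 genes were estimated with edgeR's quasi-likelihood test over 20763 genes and all 22 libraries. All 10 members passed the filter on low counts, against 7 in a fit of the 14 low libraries alone. At ZT0 1 member was called between mutant and control, at an adjusted p under 0.05, beside 50.1% of all genes tested. It was Pomc, at a log2 difference of -12.80 ± 3.78 (SE; edgeR adjusted p = 0.00965), lower in 3 of 3 mutant libraries. With 0 counts in the mutant group, the level was at least 659-fold lower than in control ZT0 libraries, against a floor of 3 counts over the group. Beside it, all 5 neuron markers and all 5 myelin markers were called lower and all 5 fibroblast markers higher in the same contrast, as were 10 of 11 tested arcuate genes lower. A call without those 3 libraries cannot be made.

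At ZT6, 0 members were called between mutant and control by edgeR, beside 0% of all genes, while 4 had an unadjusted p under 0.05, as did 2720 of all 20763 genes. DESeq2 called 2, Ghrhr and Fshb, among 688 of 41456 genes, a description on members chosen for their levels. Pomc differed by -4.25 ± 1.84 on the log2 scale (SE; edgeR adjusted p = 0.309) and by -3.66 ± 2.07 in the 17 neural libraries. Without control ZT6 mouse 1 the difference of Pomc was -1.60. For Cga, with 1 count in the 4 mutant libraries together, the fitted difference was -9.65 ± 3.46 (edgeR adjusted p = 0.190).

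After SD, 0 members were called between mutant and control by edgeR or DESeq2, beside 0% of all genes in edgeR. Of the 10, 9 had an unadjusted p under 0.05 in edgeR, among 169 of all genes, and 5 in DESeq2, among 112. The members were chosen for these levels, so the counts are a description. Without mutant SD mouse 1, 7 members passed the filter and 2 had an unadjusted p under 0.05. Gh differed by 11.07 ± 3.70 and Pomc by 3.89 ± 1.68 (SE; edgeR adjusted p = 1 for both). Mutant SD mouse 1 set the direction for Pomc: without it the log2 difference was -0.55, and in the 14 low libraries it was -1.79. In those 14 the fitted difference of Gh was -8.82, which is no bound, since both mutant libraries had 0 counts.

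Sleep deprivation was compared with undisturbed ZT6 within each genotype. In controls 0 members were called by edgeR, beside 0% of all genes, with 2 at an unadjusted p under 0.05 among 700 of all genes, and DESeq2 called 0 members among 16 genes. Pomc differed by -2.16 ± 1.56 on the log2 scale, and by 0.50 without control ZT6 mouse 1. In mutants 0 members were called by edgeR, beside 0.833% of all genes, with 9 at an unadjusted p under 0.05 among 2328 of all genes. DESeq2 called 5 (Ghrhr, Gh, Prl, Fshb and Tshb, all higher) among 708 genes. The members were chosen for their levels in these libraries, so these calls are a description. Mutant ZT6 mouse 2 had few counts and mutant ZT6 mouse 3 few neural transcripts. Without mutant SD mouse 1, 7 members passed the edgeR filter and 4 had an unadjusted p under 0.05 in edgeR. Pomc differed by 5.98 ± 1.97 (edgeR adjusted p = 0.156) and by -0.31 in the 14 low libraries.

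ZT6 was compared with ZT0 in the same way. In controls 0 members were called by edgeR, beside 0% of all genes, with 3 at an unadjusted p under 0.05 among 244 of all genes. DESeq2 called 2 (Ghrhr and Fshb) among 37 genes, again a description on members chosen for their levels. Pomc differed by 3.11 ± 1.82, and by 0.45 without control ZT6 mouse 1. In mutants 1 member was called, beside 23.8% of all genes: Pomc, at a log2 difference of 11.65 ± 3.81 (SE; edgeR adjusted p = 0.0329). Its level was at least 333.5-fold higher at ZT6, again against 0 counts in the ZT0 libraries, but 2 of the 4 mutant ZT6 libraries were themselves at 0. The call was lost without any of mutant ZT0 mice 1, 2 and 3 or mutant ZT6 mice 1 and 4. Neuron and myelin markers were called higher at ZT6 in the same contrast, 5 of 5 each. The comparisons share libraries, and no count is compared between them.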

How the data were processed

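Hypothalamus RNA from 22 mice was sequenced as polyA libraries, 1 per mouse. Per the labels' protocols, the authors trimmed reads with Trimmomatic 0.38, quantified transcripts with kallisto 0.44.0 against the Ensembl 79 mouse annotation and summed them per gene with tximport. The deposited values are estimated counts per gene, already whole numbers, and 5 repeated gene IDs out of 41461 lines were dropped. Strand use is not given in the sources used here. The members and lists were chosen with earlier results of these data known.

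CPM was computed as counts per 1000000 of a library's total. Neural libraries are those with at least 1000000 counts and at least 1000 CPM of 5 myelin genes. Differences were tested in edgeR 4.0.16 (R 4.3.3; TMM factors, filterByExpr with a minimum count of 10, 6 groups in 1 fit), with Benjamini-Hochberg adjustment over all genes and a threshold of 0.05, after the procedure was tested on simulated data. DESeq2 1.42.0 was an alternative. Intervals on ratios of counts are exact 95% intervals. Permutation tests used numpy 2.4.6, with ranks from scipy 1.17.1. Kiss1, a planned partner of Pomc, was not matched by symbol and was not run. Gene positions come from GENCODE M21 (GRCm38) and promoter windows from RefSeq (GRCm38.p6). Named genes were the 10 members, listed genes reaching 1 CPM in any neural library, and the 5 genes most alike in rank. The labels give no replicate numbers, so mice were numbered in order of deposit and no pairing was examined.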

Additional observations from a re-analysis of the deposited data

Results flagged for a closer look

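In each group of 4 libraries and for each of the 10 genes, 40 sets of 4 values in all, the highest or lowest value was marked where its gap to the next exceeded the 95% limit of Dixon's test. This happened in 23 sets. The test marks about 1 in 20 independent sets by chance, but here the genes were chosen for their levels and move together in the same libraries, so the number is a description. Mutant SD mouse 1 stood alone in its group for Gh (19556 CPM), Prl (2433 CPM), Pomc (4589.9 CPM), Cga (889 CPM), Lhb (135 CPM), Fshb (207 CPM), Tshb (32.8 CPM), Gnrhr (15.6 CPM) and Ghrhr (22.9 CPM). Control ZT6 mouse 1 stood alone for Gh (569 CPM), Prl (53.1 CPM), Pomc (1199.7 CPM), Cga (49.9 CPM), Lhb (8.37 CPM), Fshb (10.2 CPM) and Ghrhr (0.468 CPM). Gh stood alone in mutant ZT6 mouse 4 at 14.02 CPM, where Prl was 0.423 CPM and Cga 0, and Pou1f1 in control SD mouse 4 at 18.7 CPM. The remaining 5 rest on 1 to 5 counts in the only library of the group with any: Cga (0.0293 CPM) and Tshb (0.146 CPM) in mutant ZT6 mouse 1, Gnrhr in mutant ZT6 mouse 3 (0.0563 CPM) and control SD mouse 2 (0.0897 CPM), and Ghrhr in control SD mouse 1 (0.0275 CPM).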

How the results depend on the processing

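Of 405 alternative values, 364 kept their direction and their side of the threshold. No paired analysis was possible because the labels give no replicate numbers and each library comes from its own mouse. The number of members called moved in DESeq2, which took in 41456 genes. It was 2 for mutant against control at ZT0, among 10120 genes called, and 2 at ZT6, among 688. It was 5 for SD against ZT6 in mutants, among 708. For ZT6 against ZT0 it was 2 in controls, among 37, and 3 in mutants, among 5083. At ZT0 the members were Ghrhr and Gh. Ghrhr had 1 count in mutant ZT0 mouse 1 and 0 in every other ZT0 library. DESeq2 gave no adjusted p for Pomc at ZT0. Leaving out 1 library gave 0 to 1 members for ZT6 against ZT0 in mutants. Pomc reversed for mutant against control after SD (range -0.55, without mutant SD mouse 1, to 4.29; -1.79 in the 14 low libraries), for SD against ZT6 in controls (range -2.55 to 0.50, the last without control ZT6 mouse 1; 0.47 in the 14) and for SD against ZT6 in mutants (-0.31 in the 14), and Gh after SD was -8.82 in the 14. Over the 17 neural libraries, rho of Pomc was 0.819 with Agrp, 0.686 with Npy, 0.608 with Ghrh, 0.179 with Cartpt and 0.385 with Tac2. It was 0.277 with Oacyl and 0.745 with the hormone sum. Pearson's r, which a few extreme libraries can move, weakened over the same libraries to 0.499 with Agrp and 0.360 with Npy. It also weakened to 0.018 with Cartpt and 0.326 with Ghrh. This r reversed to -0.073 with Tac2 and 0.885 with Oacyl, and was 0.878 with the hormone sum. Below the hormone limit, r with the hormone sum passed the threshold at 0.542 with TMM scaling and 0.558 with a pseudocount of 0.1 CPM. It also did at 0.776 in index numbers 1 to 18. Because the limit on this sum chose the libraries, these passes are a description. Leaving out 1 library gave 0.444 to 0.749 for the hormone sum. For Tac2 it gave 0.483 to 0.714, and the call ended without control SD mouse 1 or 4. In the 10 controls r with Cartpt was 0.585, past no threshold. With Gh, r turned negative without mutant SD mouse 2 (-0.031), mutant SD mouse 3 (-0.011), control SD mouse 2 (-0.131) or control SD mouse 4 (-0.0047), in a range from -0.131 to 0.385. The causes were not tested. Contrasts with mutant ZT0 could not be fitted in the 17 libraries. Depth limits the low values: 3 counts equal 0.0639 to 0.205 CPM in the neural libraries.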

Other observations

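Cga and Pomc ranked alike below the hormone limit. Over the 14 low libraries, and in a ranking of 12787 genes made after its values were seen, its level was most like Emc9 (rho = 0.86), Cck (0.84), Dio2 (0.81), the deiodinase that activates thyroid hormone, and Pomc (0.81, rank 4). Emc9 also stood at rank 2 of the genes most like Pomc. Hcrt, the orexin precursor, lay near the other end, at rho = -0.77 with Cga and -0.63 with Pomc. Cga averaged 2.51 ± 3.59 CPM in these 14 (SD), and control SD mouse 2 had the highest level, 11.8 CPM beside 6.31 CPM of Gh. Cga and Tshb are both genes of the pars tuberalis, the sheet of cells around the stalk, but Tshb there was at most 1.03 CPM. These are values with no test.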
